A study of Mus musculus with 12 samples.

Results

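The livers of mice on a high-fat diet alone were compared directly with the livers of mice given dextran sulfate sodium (DSS) on the other diet of the study. DSS, a sulfated polysaccharide, damages the colonic epithelium and gives mice a chemically induced colitis. The comparison used the 3 libraries labelled HFD and the 3 labelled CD plus 2% DSS, here called CD_DSS, out of 12 libraries in the series. Genes were included where at least 3 of these 6 libraries reached 1 FPKM (fragments per kilobase of transcript, scaled to the mapped fragments of the library), which left 10265 genes of the 54532 in the table. All mice were wild type and of the C57BL/6J strain, an inbred laboratory strain, and all samples were whole liver. The other groups were CD, which had neither the high-fat diet nor DSS, and HFD_DSS, which had both, with 3 libraries each. The labels do not spell out CD, and they do not give age, sex, the length of the diet, or how and how long DSS was given. Whether the 3 libraries of each group are 3 mice is not stated either. The p-values therefore rest on library-to-library spread alone, part or all of which may be technical. HFD and CD_DSS differ in both diet and DSS, so a difference between them cannot by itself be assigned to either. The levels in CD and HFD_DSS are therefore given beside it.

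The liver receives the blood that drains the gut through the portal vein, and so meets both absorbed fat and products of an injured intestine. Hepatocytes, its main cells, divide their work along the lobule: pericentral cells make glutamine and carry much of drug metabolism, and periportal cells make urea and glucose. Inflammatory signals, IL-6 acting through the transcription factor STAT3 among them, turn hepatocytes to secreting acute phase proteins, and glucocorticoids released during illness act on them as well.

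Depth was 23.4 to 29.4 M fragments per library. Of the 6 libraries compared, HFD 1 and CD_DSS 1 stood apart from the others of their groups. On the first principal component of the tested genes, which held 45.1% of the variance, HFD 1 lay at 3.05 against 21.3 and 18.9 for HFD 2 and 3, and CD_DSS 1 lay at 4.59 against -21.4 and -21.5 for CD_DSS 2 and 3. Both thus lay between the groups on that axis. The acute phase protein Saa1 showed the same split, with 19.9 and 22.4 FPKM in HFD 2 and 3 but 579 in HFD 1, and with 595 and 483 FPKM in CD_DSS 2 and 3 but 9.14 in CD_DSS 1. Saa1 therefore went against the labels in these 2 libraries, whereas Glul and Zbtb16, described below, followed the labels in all 6. Counts are given with and without HFD 1 and CD_DSS 1. These libraries were singled out with the values in view, acute phase genes included, so what is found without them is a description and not a further test. Among the HFD_DSS libraries, HFD_DSS 2 lay at -7.46 against -30.3 and -25.2.

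Of the 10265 genes, 790 (7.70%) differed between HFD and CD_DSS at an adjusted p under 0.05 (limma on log2(FPKM + 1), two-sided, Benjamini-Hochberg over all genes tested), and these are the genes called below. Higher levels in HFD were found for 476 (4.64%) and higher levels in CD_DSS for 314 (3.06%), so that 60.3% of the calls were higher in HFD. This split depended on scaling: after each library was rescaled to TPM, 562 genes were called, 213 higher in HFD and 349 higher in CD_DSS, or 37.9% higher in HFD. Median-of-ratios scaling gave 795 calls with 56.4% higher in HFD, and quantile scaling 779 with 53.3%. The median absolute log2 fold change of the called genes was 0.58, the smallest was 0.25, and 138 were at 1 or more. In 784 of the 790, all 3 HFD values lay on one side of all 3 CD_DSS values, as they did in 2710 (26.4%) of all tested genes. Without HFD 1 and CD_DSS 1, 1362 genes were called, 755 higher in HFD and 607 higher in CD_DSS, and 587 of these were among the 790. List counts given below under TPM scaling or without these libraries belong beside 562 and 1362 of the 10265 genes, not beside 7.70%. Leaving out single libraries moved the count both ways: 600 without HFD 1, 163 without HFD 2, 355 without HFD 3, 1301 without CD_DSS 1, 283 without CD_DSS 2 and 156 without CD_DSS 3. Of 118 called genes chosen for naming, 34 were called in each of these 6 fits. Among them are Acnat2, Alas2, Amacr, Atf3, Bhmt, Cd207, Cd4, Cd9, Cela1, Ces1b, Cyp2u1, Efna1, F11, Fkbp5, Gadd45b, Glul, Hfe2, Hsd3b5, Klf10, Mup-ps20, Mup1, Mup11, Mup13, Mup17, Mup9, Serpina4-ps1, Sox9, Sucnr1, Tpmt, Tsc22d1, Ugt1a9 and Zbtb16. Of the 6 libraries compared, Atf3 and Gadd45b reached 1 FPKM only in those of CD_DSS, and Cd4 and Mup-ps20 only in those of HFD. These genes passed the expression filter through 1 group, so they could be tested only in the direction found. The called genes named below that are not among the 34 lost the call without at least 1 of the 6 libraries. For them the libraries and the highest adjusted p are given where their values are described, in that paragraph or the next.

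**Figure D1:**
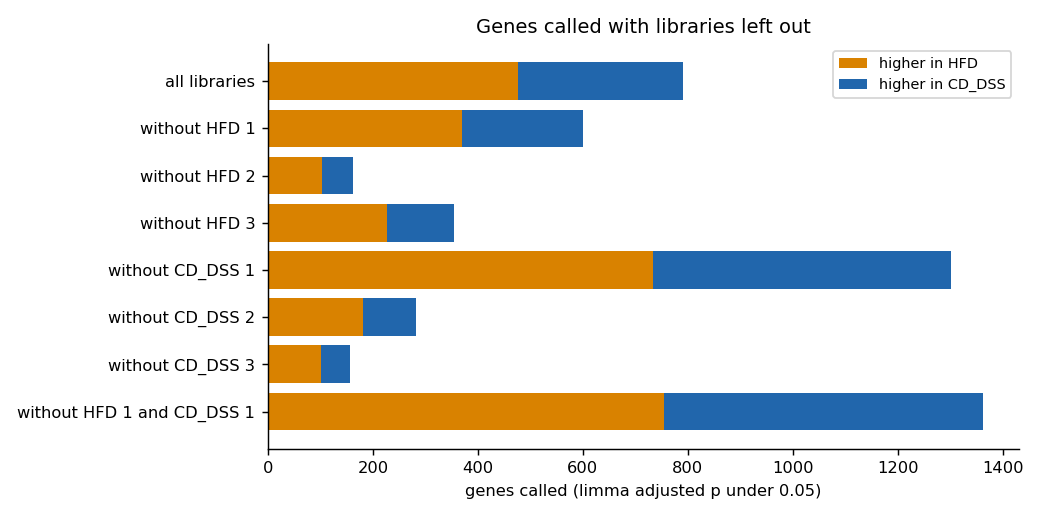
Number of genes called between HFD and CD_DSS (horizontal axis) with all libraries and with 1 or 2 of the 6 compared libraries left out, split into genes higher in HFD (orange) and higher in CD_DSS (blue). The count is 790 with all libraries, is lowest without CD_DSS 3 (156) and highest without both HFD 1 and CD_DSS 1 (1362).

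Glutamine synthetase had one of the largest differences, and the called genes of pericentral hepatocytes and of urea and amino acid metabolism were all higher in HFD. Glul, glutamine synthetase, which joins ammonia to glutamate in the hepatocytes around the central vein, lies on chromosome 1 at 153899944 to 153909723 (mm10, plus strand). It stood at 253, 243 and 284 FPKM in HFD 1 to 3 and at 38.9, 17.6 and 25 in CD_DSS 1 to 3. Every HFD library was far above every CD_DSS library, a log2 fold change of 3.28 (SE 0.35, adjusted p = 0.00147). The HFD values overlapped those of CD, where Glul stood at 295, 243 and 242 FPKM, while the HFD_DSS level was low, at 32.2, 36.9 and 92. Of 18 tested pericentral genes, 3 were called (16.7%, against 7.70% of all tested genes), all higher in HFD. The median log2 fold change of the 18 was 0.80 against 0.008 over all tested genes. Without HFD 1 and CD_DSS 1, 7 of the 18 were called, again all higher in HFD, where 1362 of all 10265 genes were called. The other called members were Oat, ornithine aminotransferase (log2 fold change 1.35, SE 0.33, adjusted p = 0.0326), and Gulo, the last enzyme of vitamin C synthesis (1.10, SE 0.30, adjusted p = 0.0466). Cyp2a5, a pericentral cytochrome P450, was not called and overlapped, at 40.1, 53 and 38.2 FPKM in HFD and 55.9, 13.1 and 15.4 in CD_DSS.

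Of 35 tested genes of urea and amino acid metabolism, 8 were called (22.9%, against 7.70% of all tested genes), all higher in HFD. The median of the 35 was 0.32. Glul and Oat are on both this list and the pericentral list, so the counts of these lists are not separate. Under TPM scaling 2 of the 35 were called, and without HFD 1 and CD_DSS 1 the number was 15. In those fits 562 and 1362 of all 10265 genes were called. Bhmt, which remethylates homocysteine with betaine, stood at 504, 691 and 733 FPKM in HFD and at 175, 307 and 218 in CD_DSS, without overlap (log2 fold change 1.48, SE 0.22, adjusted p = 0.00451). CD held 540 to 776 FPKM of Bhmt. Tdo2, which opens the ring of tryptophan, was at 333, 420 and 371 FPKM in HFD and at 290, 242 and 179 in CD_DSS (0.68, SE 0.17, adjusted p = 0.0342). Of 19 tested periportal genes, 1 was called (5.26%, against 7.70% of all tested genes). This was Cyp2f2, a periportal P450, at 460 to 564 FPKM in HFD and 295 to 333 in CD_DSS (0.71, adjusted p = 0.01495). Cyp2f2 shares 13.5% of its exon bases with another gene. Oat (up to 0.114, without CD_DSS 3) and Gulo (up to 0.129, without CD_DSS 3) stayed called only without CD_DSS 1, where Oat stood at 142 and Gulo at 202 FPKM, nearest to HFD. The call of Tdo2 was lost without HFD 2, HFD 3, CD_DSS 2 or CD_DSS 3 (up to 0.126) and that of Cyp2f2 without HFD 2 or CD_DSS 3 (up to 0.066).

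**Figure D2:**
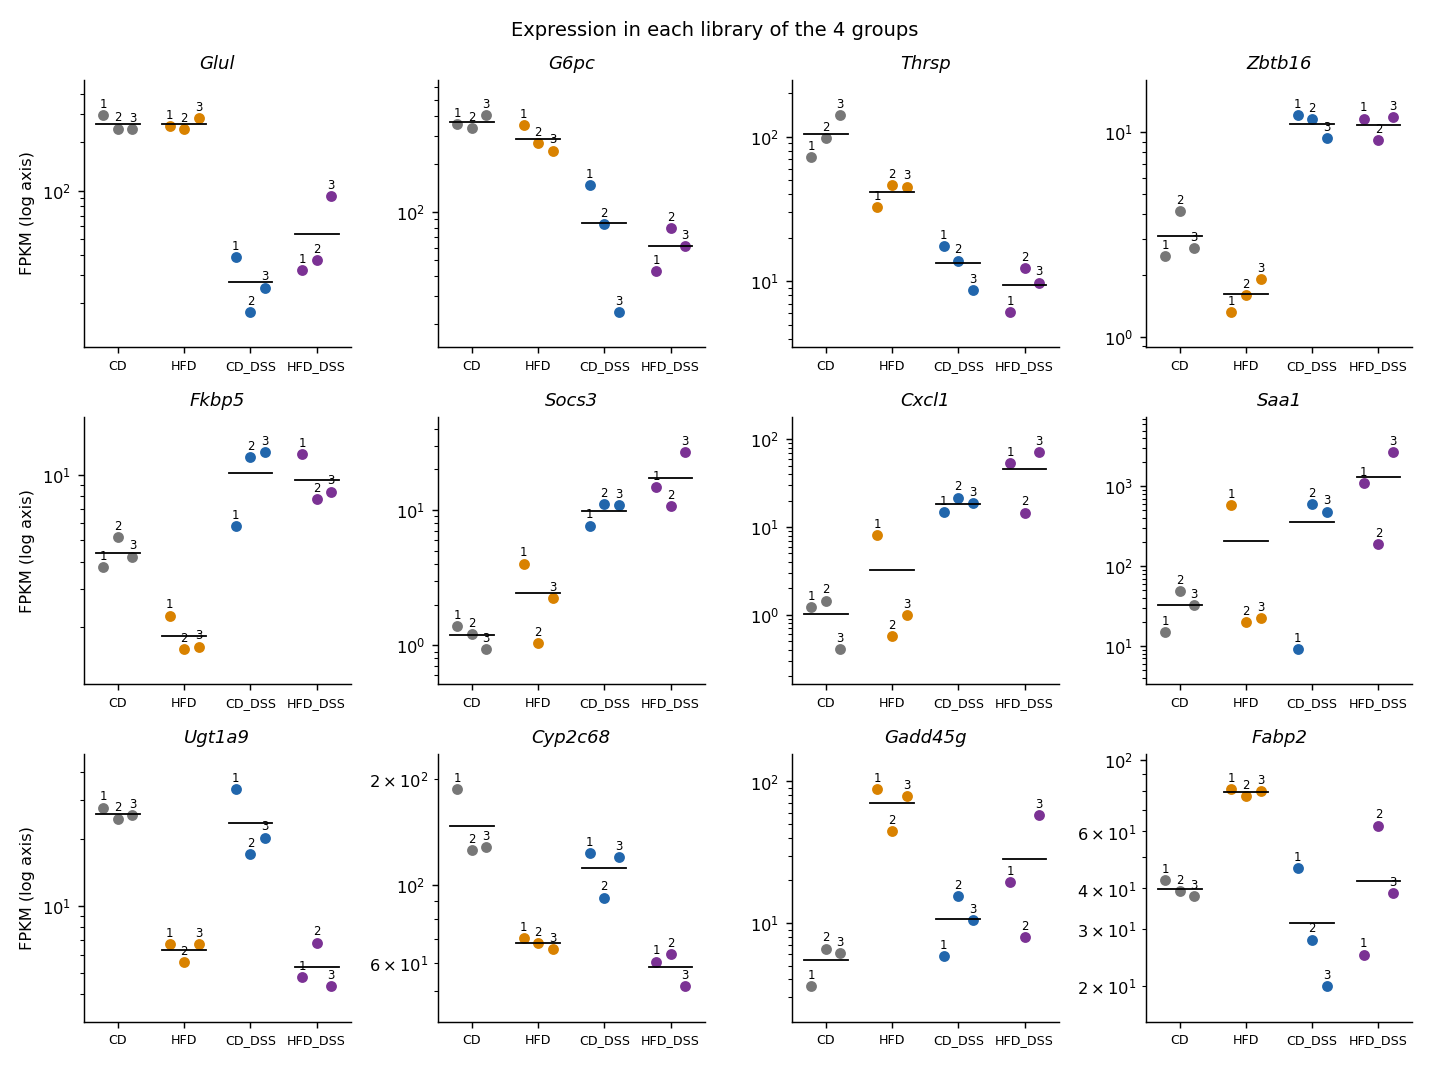
FPKM (log axis, scaled per gene) of 12 genes in each library of the 4 groups, with the library number above each point and the group mean as a line. Glul, G6pc and Thrsp were higher in HFD than in CD_DSS and Zbtb16, Fkbp5, Socs3 and Cxcl1 lower, Saa1 overlapped, with HFD 1 high and CD_DSS 1 low, Ugt1a9 and Cyp2c68 were low in both high-fat groups, and the means of Gadd45g and Fabp2 were highest in HFD.

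Genes that the male pattern of growth hormone release keeps high in mouse liver were higher in HFD as a group. Of 21 tested genes on this list, 14 were called (66.7%, against 7.70% of all tested genes). All 14 were higher in HFD (13 under TPM scaling, 16 without HFD 1 and CD_DSS 1). The list includes Mup genes, Mup11 and Mup12 among them, so it is not separate from the Mup family described next. The median log2 fold change was 1.80 against 0.008 over all tested genes. Hsd3b5, a steroid dehydrogenase of male liver, stood at 208, 249 and 234 FPKM in HFD and at 81.1, 33.2 and 35 in CD_DSS, without overlap (2.31, SE 0.36, adjusted p = 0.00617). Sucnr1, the receptor for succinate, was at 14.8, 28.6 and 20.3 FPKM in HFD against 6.25, 2.3 and 1.94 in CD_DSS (2.38, SE 0.41, adjusted p = 0.0094). Cyp4a12a, a fatty acid hydroxylase of male liver, was at 138, 162 and 149 FPKM in HFD against 44.6, 28.8 and 21.2 in CD_DSS (2.28, SE 0.42, adjusted p = 0.0133), a call lost without HFD 2 or CD_DSS 3 (up to 0.0584). Of the female-biased list, only 4 of 20 genes passed the expression filter. 2 of these were called, both higher in CD_DSS: Cyp2c69, described with the diet-ordered genes below, and the monooxygenase Fmo2, at 0.785 to 1.46 FPKM in HFD and 1.9 to 2.52 in CD_DSS (-0.70, adjusted p = 0.0168, lost without HFD 2, CD_DSS 2 or CD_DSS 3, up to 0.0715). Among 13 tested genes of the growth hormone axis, 1 was called (7.69%, against 7.70% of all tested genes). This was Ghr, the growth hormone receptor, at 62.3 to 70.8 FPKM in HFD and 54.6, 34 and 34.6 in CD_DSS (0.73, adjusted p = 0.0344). Among the 6 fits Ghr was called only without CD_DSS 1, with an adjusted p up to 0.135 in the others.

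The largest fold changes came from the major urinary protein (Mup) genes of chromosome 4, which encode pheromone-binding proteins that male liver secretes in bulk. Together they took 10.2, 8.82 and 9.27% of the summed FPKM in HFD 1 to 3 and 3.05, 3.39 and 3.19% in CD_DSS 1 to 3. In this measure HFD 1 and CD_DSS 1 lay with their own groups. The share was 4.12, 6.62 and 6.76% in CD and 5.4, 5.99 and 5.82% in HFD_DSS, so that HFD lay above and CD_DSS below all libraries of the other groups. Of 22 annotated genes, 20 were tested, 13 were called higher in HFD and 0 higher in CD_DSS, and 19 had a positive difference, with a median log2 fold change of 2.20. Mup13 had the largest difference of any named gene, at 1153, 431 and 506 FPKM in HFD and 3.03, 6.23 and 3.48 in CD_DSS (6.96, SE 0.88, adjusted p = 0.00256). Mup17, an abundant member, stood at 6175, 3267 and 4117 FPKM in HFD and 203, 655 and 378 in CD_DSS (3.56, SE 0.56, adjusted p = 0.00647). Mup11 was at 534, 314 and 372 FPKM in HFD and 52.5, 108 and 68.2 in CD_DSS (2.43, SE 0.28, adjusted p = 0.00175). Members of the family are near-identical copies, so fragments could have been divided among them in ways that the deposited values do not show, and single members are uncertain. Mup18 lost its call without CD_DSS 3 (0.0584), Mup12 without HFD 2 (0.0559), and Mup16 without any 1 of the 6 libraries (up to 0.140, without CD_DSS 2).

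**Figure D3:**
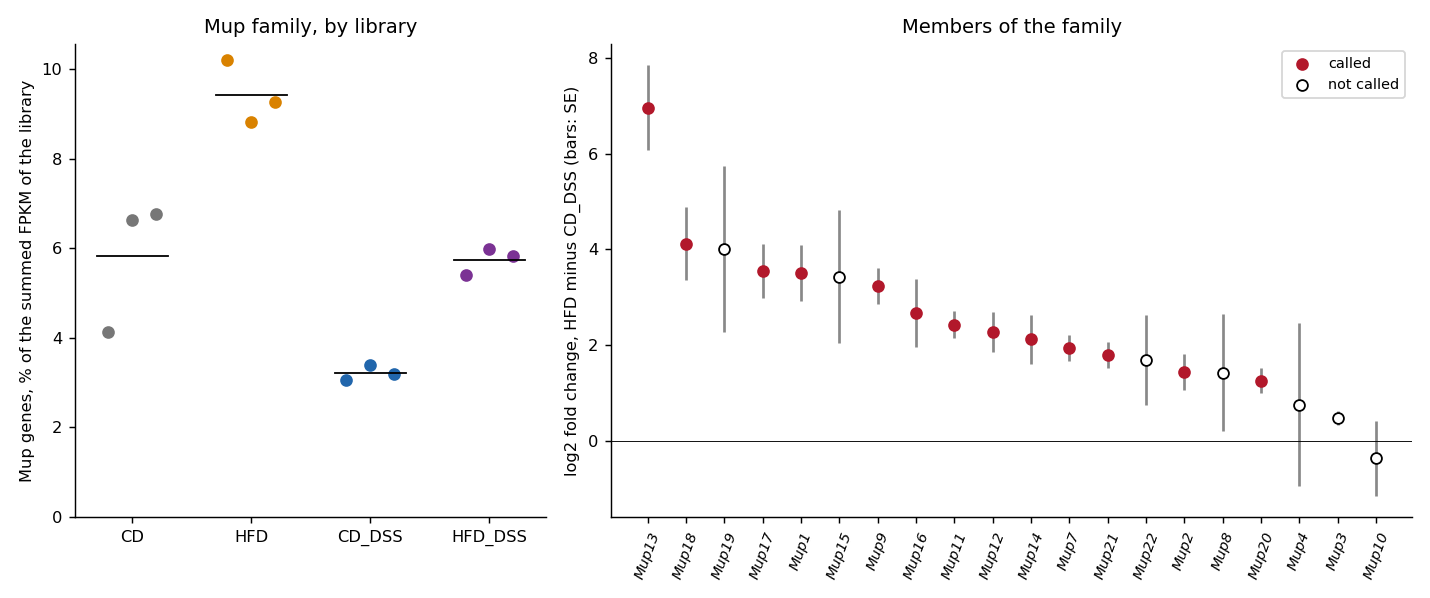
Left, share of the summed FPKM of each library taken by all annotated Mup genes, one point per library and a line at the group mean; right, log2 fold change of FPKM + 1 between HFD and CD_DSS for each of the 20 tested members, with standard error bars. The share is 8.82 to 10.2% in HFD and 3.05 to 3.39% in CD_DSS, and 13 members are called.

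Few genes of glucose and lipid handling were called, and their shares lay near the 7.70% of all tested genes: 4.55% of glucose and glycogen genes, 9.52% of lipogenic genes and 4.76% of lipid droplet and uptake genes. G6pc, glucose-6-phosphatase, the last step of glucose release, stood at 350, 269 and 242 FPKM in HFD and at 147, 83.9 and 23.7 in CD_DSS, without overlap (2.07, SE 0.50, adjusted p = 0.0319). It was the only one of 22 tested glucose and glycogen genes called. The other gluconeogenic enzyme named, Pck1, overlapped, at 857, 799 and 729 FPKM in HFD and 1168, 747 and 409 in CD_DSS. Of 21 tested lipogenic genes, 2 were called, both higher in HFD. Thrsp, a lipogenic regulator also known as Spot14, stood at 32.5, 46.1 and 45.2 FPKM in HFD and 17.5, 13.9 and 8.64 in CD_DSS (1.59, SE 0.30, adjusted p = 0.0144), below the 72.7 to 141 FPKM of CD in both. Agpat2, which acylates lysophosphatidic acid, was at 98.7 to 108 and 75.6 to 83 FPKM (0.39, adjusted p = 0.0260). The desaturase Scd1 ranged over 108, 547 and 686 FPKM in HFD and 1307, 294 and 208 in CD_DSS, and in each group library 1 was the one out of line. Its fold change of -0.32 was not called (adjusted p = 0.8535), and the sign turned without HFD 1 (0.51). Fasn, fatty acid synthase, was likewise not called (-0.01, adjusted p = 0.986). The call of G6pc was lost without any 1 HFD library or CD_DSS 2 (up to 0.0971, without HFD 2) and that of Thrsp without HFD 2 or CD_DSS 3 (up to 0.0624). Agpat2 stayed called only without CD_DSS 1 (up to 0.105 otherwise).

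Of 29 tested fatty acid oxidation genes, 3 were called higher in HFD and 1 higher in CD_DSS (13.8% called, against 7.70% of all tested genes). Under TPM scaling 0 were higher in HFD, and without HFD 1 and CD_DSS 1, 10 were. Acsl1, which activates long-chain fatty acids, stood at 102, 143 and 135 FPKM in HFD and 83.9, 54.2 and 62.5 in CD_DSS (0.92, SE 0.23, adjusted p = 0.0367). Creb3l3, a liver transcription factor of the fasting response, was at 126 to 140 FPKM in HFD and 94.1 to 99.7 in CD_DSS (0.46, adjusted p = 0.0181). Cpt2, the inner-membrane carnitine acyltransferase, was at 73.6 to 82 FPKM in HFD and 47.6 to 66.1 in CD_DSS (0.49, adjusted p = 0.0362). Among 21 lipid droplet and uptake genes, 1 was called: Fabp2, the intestinal-type fatty acid binding protein, with 46.3, 27.8 and 20 FPKM in CD_DSS and 80.9, 77.3 and 80.2 in HFD (1.40, SE 0.31, adjusted p = 0.0239). Its CD level was 37.9 to 42.3 FPKM. Plin2, which coats lipid droplets, stood at 199, 182 and 182 FPKM in HFD and 169, 99.3 and 103 in CD_DSS and was not called (adjusted p = 0.103). Cpt2 (up to 0.135) and Fabp2 (up to 0.0956) stayed called only without CD_DSS 1. The call of Acsl1 was lost without HFD 2, HFD 3, CD_DSS 2 or CD_DSS 3 (up to 0.129) and that of Creb3l3 without HFD 2, CD_DSS 2 or CD_DSS 3 (up to 0.0794).

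Bile acid synthesis differed in several enzymes, 4 of 13 tested being called higher in HFD and 1 higher in CD_DSS (median 0.32). This was 38.5% called, against 7.70% of all tested genes. Cyp8b1, the sterol 12-alpha-hydroxylase that directs synthesis to cholic acid, stood at 164, 203 and 219 FPKM in HFD and at 86.2, 113 and 116 in CD_DSS (0.89, SE 0.17, adjusted p = 0.0134), below the 245 to 324 of CD in both groups. Amacr, a racemase of side-chain shortening, was at 74.7, 79.3 and 68.5 against 50.6, 33.7 and 36.2 FPKM (0.89, SE 0.14, adjusted p = 0.00655). Cyp7b1, the oxysterol hydroxylase of the alternative pathway, was at 243, 163 and 187 against 45.2, 47.3 and 38.4 FPKM (2.14, SE 0.49, adjusted p = 0.0257). The oxysterol hydroxylase Cyp39a1 went the other way, at 4.2 to 5.44 in HFD and 9.61 to 18.6 FPKM in CD_DSS (-1.28, adjusted p = 0.0209). Cyp7a1, the rate-limiting enzyme, did not overlap, at 4.92, 6.41 and 13.3 FPKM in HFD and 2.37, 0.379 and 1.15 in CD_DSS, but was not called (adjusted p = 0.0973). Its CD values of 15.6 to 46.6 FPKM lay above both. Of 16 tested bile acid transporters limma called 0, with 4 at an unadjusted p under 0.05, and voom called 0. Without HFD 1 and CD_DSS 1, 4 were called, all higher in HFD, where 1362 of all 10265 genes were called. The call of Cyp8b1 was lost without HFD 2 (0.0611) and that of Cyp39a1 without HFD 1, HFD 2 or CD_DSS 3 (up to 0.0762). Cyp7b1 stayed called only without CD_DSS 1 (up to 0.0964 otherwise).

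Among enzymes of foreign compound metabolism the differences went both ways. Of 28 tested cytochromes P450 of families 1 to 3, 5 were called higher in HFD and 4 higher in CD_DSS. This was 32.1% called, against 7.70% of all tested genes. Cyp2u1 stood at 5.18, 7.48 and 6.77 FPKM in HFD and 2.49, 2.24 and 1.96 in CD_DSS (1.20, adjusted p = 0.00643), and Cyp3a13 at 73.8, 56.1 and 54.9 in HFD and 78.3, 150 and 149 in CD_DSS (-0.97, adjusted p = 0.0303, lost without HFD 2, HFD 3, CD_DSS 2 or CD_DSS 3, up to 0.122). Of 13 carboxylesterases, which cleave esters and drugs, 4 were higher in HFD and 2 in CD_DSS (46.2% called). Ces2c was at 30.8, 20.8 and 19.5 in HFD and 5.83, 1.94 and 1.07 FPKM in CD_DSS (2.80, SE 0.56, adjusted p = 0.0168, lost without HFD 2, CD_DSS 2 or CD_DSS 3, up to 0.0723). Ces1b was lower, at 22.5, 25.8 and 21 FPKM in HFD and 51, 47.1 and 50.4 in CD_DSS (-1.07, SE 0.12, adjusted p = 0.00152). Of 36 tested conjugating enzymes, 5 were higher in HFD and 2 in CD_DSS (19.4% called). Among them was the thiopurine methyltransferase Tpmt, at 11.3 to 12.9 FPKM in HFD and 5.22 to 7.64 in CD_DSS (0.85, adjusted p = 0.00256). The exons of Tpmt share 17.4% of their bases with another gene.

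Transcripts for oxidative phosphorylation encoded in the nucleus were shifted slightly in one direction. All 34 tested had a positive difference, with a median log2 fold change of 0.29. Of the 34, 4 were called (11.8%, against 7.70% of all tested genes), all higher in HFD. Under TPM scaling 0 were called, at a median of 0.24, and without HFD 1 and CD_DSS 1, 9 were. Sdhb, the iron-sulfur subunit of succinate dehydrogenase, stood at 74.9, 87.7 and 75.2 FPKM in HFD and 60.8, 60.2 and 52.7 in CD_DSS (0.45, adjusted p = 0.0227). Cycs, cytochrome c, was at 31.9, 27.2 and 21.4 against 21, 16.5 and 14.8 (0.59, adjusted p = 0.0379). Of 13 mitochondrially encoded transcripts, 2 were called (15.4%), both higher in HFD. One was mt-Co1, a subunit of cytochrome c oxidase, at 14080 to 15925 FPKM in HFD and 9768 to 10473 in CD_DSS (0.57, adjusted p = 0.0385). Both were uncalled under TPM scaling. The call of Sdhb was lost without HFD 2, CD_DSS 2 or CD_DSS 3 (up to 0.0971) and that of Cycs without HFD 1, HFD 2, CD_DSS 2 or CD_DSS 3 (up to 0.148). The call of mt-Co1 stayed only without CD_DSS 1 (up to 0.132 otherwise). In bulk liver, a difference in the number of cells of a type and a difference in RNA per cell cannot be told apart.

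**Figure D4:**
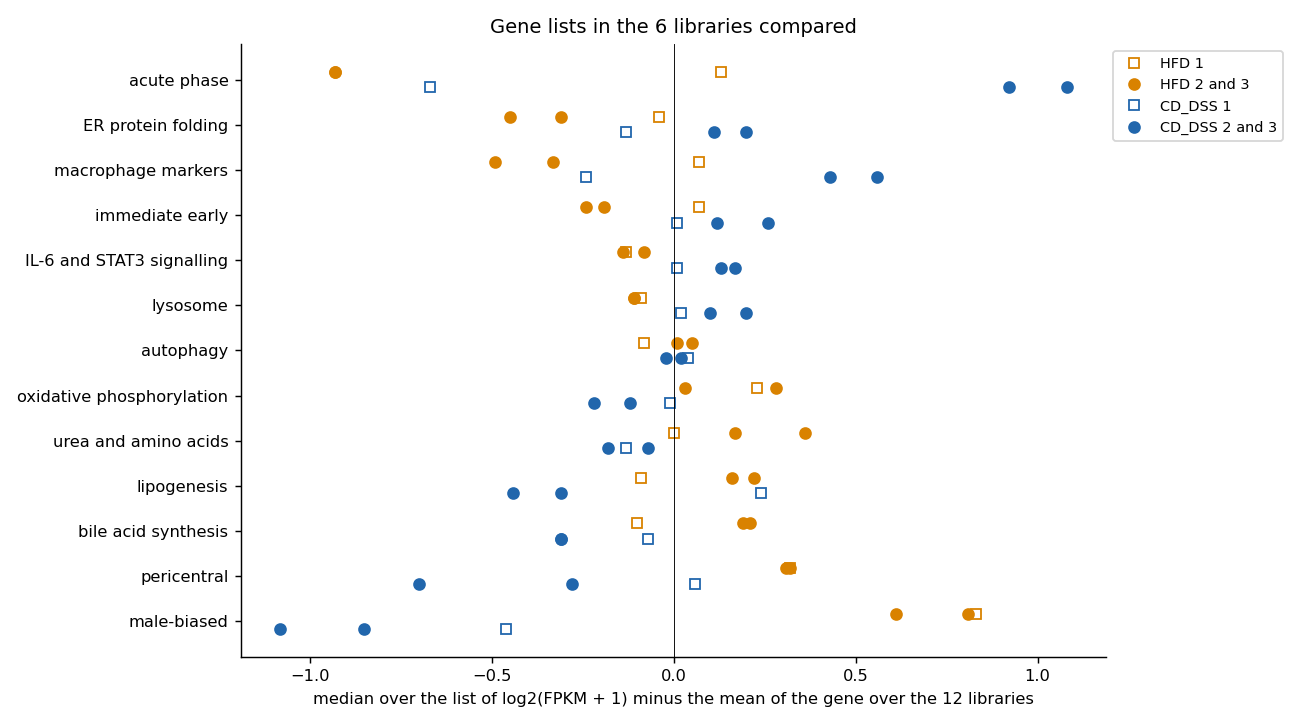
For 13 gene lists, the median over the tested members of log2(FPKM + 1) after subtraction of the mean of each gene over the 12 libraries (horizontal axis), one symbol per library; open squares are HFD 1 and CD_DSS 1. The male-biased list, which includes Mup genes, separates all 3 HFD from all 3 CD_DSS libraries (0.61 to 0.83 against -1.08 to -0.46). In the acute phase list HFD 1 lies at 0.13 and CD_DSS 1 at -0.67, apart from the other 2 of their groups (-0.93 and -0.93, and 0.92 and 1.08).

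Among the genes higher in CD_DSS were some targets of the glucocorticoid receptor, while other targets were higher in HFD. Zbtb16, a zinc finger repressor that glucocorticoids induce (chromosome 9, 48654297 to 48836222, mm10, minus strand), stood at 12.1, 11.6 and 9.41 FPKM in CD_DSS and at 1.32, 1.6 and 1.91 in HFD (-2.20, SE 0.16, adjusted p = 0.000189). Fkbp5, the chaperone that damps the receptor and is itself induced by it, was at 5.82, 12 and 12.7 in CD_DSS and 2.26, 1.59 and 1.63 in HFD (-1.92, SE 0.25, adjusted p = 0.00283). In both genes all HFD values also lay below all CD values, which were 2.49 to 4.13 for Zbtb16 and 3.76 to 5.17 for Fkbp5. Tsc22d3, known as GILZ and induced by glucocorticoids in many cells, went the other way, at 52.4, 44.6 and 34.2 FPKM in HFD and 14.6, 19.4 and 19.5 in CD_DSS (1.24, SE 0.26, adjusted p = 0.0208, lost without HFD 1, HFD 2, CD_DSS 2 or CD_DSS 3, up to 0.079). Of the 20 tested targets, 3 were called higher in CD_DSS and 2 higher in HFD (25% called, against 7.70% of all tested genes). A positive difference was found in 13 of the 20, and the median was 0.18.

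The IL-6 pathway was higher in CD_DSS at 4 points. Of 15 tested members, 4 were called (26.7%, against 7.70% of all tested genes), all higher in CD_DSS. The median of the 15 was -0.25. The receptor chain Il6ra stood at 9.04, 10.2 and 13.7 FPKM in CD_DSS and 6.19, 5.91 and 6.72 in HFD (-0.70, SE 0.15, adjusted p = 0.0208). The shared signalling chain Il6st was at 30, 36.7 and 43.7 against 21.2, 25.6 and 24.4 (-0.60, SE 0.13, adjusted p = 0.0206). The transcription factor Stat3 was at 24.5, 30.7 and 34.7 against 22.2, 17.2 and 16.3 (-0.66, SE 0.14, adjusted p = 0.0211). Socs3, the feedback inhibitor that STAT3 induces, was at 7.67, 11 and 10.9 against 4.02, 1.04 and 2.23 (-1.74, SE 0.33, adjusted p = 0.0149). None of the 4 overlapped between the groups, as was so for 784 of the 790 called genes. For Stat3 and Socs3, HFD 1 was the highest of the HFD libraries and CD_DSS 1 the lowest of the CD_DSS libraries. All 4 lost the call without HFD 2, CD_DSS 2 or CD_DSS 3, Stat3 also without HFD 3 and Il6st also without HFD 1. The highest adjusted p was 0.0841 for Il6ra (without HFD 2) and, without CD_DSS 3, 0.0754 for Il6st, 0.0883 for Stat3 and 0.0621 for Socs3. Without HFD 1 and CD_DSS 1, 6 members were higher in CD_DSS and 2 in HFD.

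STAT factors bind the sequence TTCNNNGAA, which reads the same on both strands. In the RefSeq promoter table (GRCm38.p6, the mm10 assembly), 7.02% of 32851 promoters hold it in the 250 bases before the start, and 10 of 106 named genes with an entry did (9.43%). The windows of all 10 are shown because genes of both directions are among them, in the order of their log2 fold change from the most CD_DSS-high to the most HFD-high, 5′ to 3′ on the strand of the gene, with the match in capitals.
Socs3, chr11:117969496-117969536, minus strand: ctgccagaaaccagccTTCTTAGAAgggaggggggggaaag
Fga, chr3:83025903-83025943, plus strand: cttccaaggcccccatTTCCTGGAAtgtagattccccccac
Irf1, chr11:53769908-53769948, plus strand: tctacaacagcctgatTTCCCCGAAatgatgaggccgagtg
Pros1, chr16:62854199-62854239, plus strand: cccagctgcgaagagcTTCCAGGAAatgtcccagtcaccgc
Igtp, chr11:58199495-58199535, plus strand: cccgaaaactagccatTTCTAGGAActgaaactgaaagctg
Gm2a, chr11:55097888-55097928, plus strand: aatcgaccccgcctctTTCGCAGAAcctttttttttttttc
Cpt2, chr4:107923765-107923805, minus strand: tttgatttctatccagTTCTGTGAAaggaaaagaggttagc
Tsc22d3, chrX:140548754-140548794, minus strand: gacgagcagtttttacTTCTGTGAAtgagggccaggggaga
Tsc22d1, chr14:76414934-76414960, plus strand: caaccccacctctcatTTCTTTGAAcg
Hamp, chr7:30944102-30944142, minus strand: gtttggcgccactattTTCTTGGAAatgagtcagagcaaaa
Of these 10 genes, 6 were called higher in CD_DSS (Socs3 to Gm2a), 3 were called higher in HFD (Cpt2, Tsc22d3 and Tsc22d1), and Hamp was not called (3.02, adjusted p = 0.109). With 1 library left out, Irf1 stayed called only without HFD 2 (up to 0.136 otherwise), Pros1 only without CD_DSS 1 (up to 0.118) and Igtp only without HFD 1 (up to 0.146). For each motif, the named share counts genes with a match in any of their promoter entries, while the share of all promoters counts entries. These shares are therefore not measured alike. They are a description of letters in a window and were not tested. The glucocorticoid half-site pair ACANNNTGT was found before 11 of the 106 (10.4%) and before 5.84% of all promoters. It lay before Glul, Tdo2, Fabp2, F11, Cyp8b1 and Bhmt, higher in HFD, before Acnat2, Cxcl1, Fga and Cyp2c38, higher in CD_DSS, and before the uncalled Lcn2. A direct repeat of AGGTCA with 1 base between was before 0 of the 106 and 0.0335% of all promoters.

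The acute phase proteins themselves showed the spread of HFD 1 and CD_DSS 1. Of 31 tested, 30 had a negative difference, with a median log2 fold change of -1.08. Yet 2 were called (6.45%, against 7.70% of all tested genes), and 7 under TPM scaling. Without those 2 libraries, where 1362 of all 10265 genes were called, 25 of the list were called. All 25 were higher in CD_DSS, and the median of the list was -1.94. With all libraries the called ones were C3 and Fga. C3, complement component 3, was at 1805, 3413 and 4452 FPKM in CD_DSS and 1385, 1242 and 1262 in HFD (-1.22, SE 0.29, adjusted p = 0.0326). Fga, the fibrinogen alpha chain, was at 2540, 4725 and 5593 in CD_DSS and 2558, 1454 and 1698 in HFD (-1.14, SE 0.31, adjusted p = 0.0488). Fga overlapped, since HFD 1 was above CD_DSS 1. Saa1 was not called (-1.12, SE 1.64, adjusted p = 0.717), and its difference without the 2 libraries was -4.60. Lcn2, lipocalin-2, which withholds iron from bacteria, was at 2.35, 99 and 94.4 in CD_DSS and 35.8, 1.18 and 0.746 in HFD, with -2.61 (adjusted p = 0.291) and -5.65 without the 2 libraries. Both differences follow in part from the choice of the libraries left out, and no test is read from them. C3 stayed called only without CD_DSS 1 (up to 0.122 otherwise), and Fga only without HFD 1 or CD_DSS 1 (up to 0.183 otherwise). The sum of 11 neutrophil markers moved with this split. It was 2.08 and 2.66 FPKM in HFD 2 and 3 but 25.8 in HFD 1, and 25.4 and 19.1 in CD_DSS 2 and 3 but 4.43 in CD_DSS 1. S100a8 (6.35) and S100a9 (14) made up most of it in HFD 1. Csf3r, Cxcr2, Mmp8, Mmp9, Retnlg and Il1r2 were also highest in HFD 1 among the HFD libraries, at low levels. Ly6g was at 0 in all 3 HFD libraries, and Ngp and Camp were higher in HFD 3 than in HFD 1. None of the 11 was at 0 in all 6 libraries, 4 passed the expression filter and 0 were called. The part of neutrophil markers in the result was not tested.

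Inflammatory mediators were called at a share near that of all tested genes, and immediate early genes at a higher one. Cxcl1, a chemokine that attracts neutrophils, stood at 14.9, 21.6 and 18.9 FPKM in CD_DSS and 8.13, 0.572 and 0.999 in HFD (-2.65, SE 0.65, adjusted p = 0.03405). It was 1 of 2 called among 22 NF-kB and cytokine targets (9.09%, near the 7.70% of all tested genes), with the B cell chemokine Cxcl13 (-1.30, adjusted p = 0.0409). Of 17 immediate early genes, 4 were higher in CD_DSS and 1 in HFD (29.4% called, against 7.70% of all tested genes). Klf10, a zinc finger factor induced by TGF-beta, was at 7.8, 6.03 and 5.05 FPKM in CD_DSS and 0.924, 1.65 and 0.836 in HFD (-1.77, SE 0.19, adjusted p = 0.00147). Gadd45b, a stress-induced regulator, was at 1.39, 1.33 and 2.34 against 0.442, 0.467 and 0.183 (-0.96, adjusted p = 0.00693), and the stress factor Atf3 at 1.35, 1.68 and 1.61 against 0.308, 0.728 and 0.348 (-0.81, adjusted p = 0.0107). Both passed the expression filter only through CD_DSS, so a higher level there was a condition of being tested. Gadd45g, a relative of Gadd45b, went the other way, at 87.9, 44.4 and 79.1 FPKM in HFD and 5.86, 15.5 and 10.5 in CD_DSS (2.65, SE 0.57, adjusted p = 0.0211). Its CD level was 3.58 to 6.59. Of 15 genes of the integrated stress response, 3 were called (20%, against 7.70% of all tested genes), all higher in CD_DSS, Atf3 again among them. Another was Ddit3, which encodes CHOP, at 7.47, 7.27 and 8.97 against 2.55, 2.82 and 2.62 FPKM (-1.28, SE 0.27, adjusted p = 0.0211). The table holds a second entry under the symbol Ddit3 that shares 6.13% of these exon bases. By limma, 0 of 27 protein folding genes of the endoplasmic reticulum and 0 of 18 heat shock genes were called, with 4 and 5 at an unadjusted p under 0.05, and voom called 0 of either. Under TPM scaling 1 of each was called, higher in CD_DSS. Cxcl13 stayed called only without CD_DSS 1 (up to 0.148 otherwise). The calls of Cxcl1 (up to 0.126) and Ddit3 (up to 0.0866) were lost without HFD 2, HFD 3, CD_DSS 2 or CD_DSS 3, and that of Gadd45g (up to 0.0723) without any 1 HFD library or CD_DSS 3.

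The series title names autophagy, the delivery of cell contents to the lysosome. Of 46 tested autophagy genes, 3 were called higher in HFD and 5 higher in CD_DSS (17.4% called, against 7.70% of all tested genes). The median of the 46 was -0.01, with 23 differences on each side of 0. Map1lc3b, the LC3B protein of the autophagosome membrane, stood at 14.6, 14.2 and 14.7 FPKM in HFD and 17.1, 21.5 and 21.7 in CD_DSS (-0.44, SE 0.10, adjusted p = 0.0296). Ulk1, the kinase that starts autophagy, was at 11.2, 11.5 and 12.5 against 18.7, 18 and 21.1 (-0.67, SE 0.15, adjusted p = 0.0268). Optn, a cargo receptor, was higher in HFD, at 18.3, 21.7 and 20.9 against 15.4, 13.7 and 12.6 (0.52, SE 0.10, adjusted p = 0.0160). Atg4a, a protease that trims LC3-type proteins, was also higher in HFD, at 5.35 to 6.42 against 3.56 to 4.57 (0.44, adjusted p = 0.0351). Sqstm1, the cargo receptor p62, was at 119 to 126 FPKM in HFD and 144 to 153 in CD_DSS, without overlap, and was not called (-0.29, adjusted p = 0.0806). Its exons share 17.3% of their bases with another gene. Under TPM scaling 4 were called higher in CD_DSS and 0 in HFD, while Optn and Atg4a were called under median-of-ratios and quantile scaling.

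Of 31 lysosomal genes, 5 were called (16.1%, against 7.70% of all tested genes), all higher in CD_DSS. A negative difference was found in 27 of the 31 (median -0.18), and 5 were called under TPM scaling. Ctsa, the protective protein cathepsin A, stood at 27.5, 35.6 and 36.1 FPKM in CD_DSS and 22.8, 21.4 and 21.5 in HFD (-0.56, adjusted p = 0.0199). Npc2, a carrier of cholesterol out of lysosomes, was at 12.5 to 14.2 against 8.76 to 10.1 (-0.49, adjusted p = 0.0123). Hexa, a subunit of beta-hexosaminidase, was at 26.8, 39.6 and 35.2 against 23, 23.2 and 19.3 (-0.60, adjusted p = 0.0263). The exons of Ctsa and Hexa share 10.5 and 12.8% of their bases with other genes. Tfeb, the transcription factor of lysosome genes, was at 0.956 to 1.16 in HFD and 1.18 to 1.71 in CD_DSS, without overlap, and was not called (adjusted p = 0.150). Map1lc3b and Ulk1 stayed called only without CD_DSS 1, Atg4a only without HFD 3 or CD_DSS 1, and Ctsa and Hexa only without HFD 1 or CD_DSS 1. Optn lost the call without HFD 2, CD_DSS 2 or CD_DSS 3 and Npc2 without HFD 2 or CD_DSS 3. The highest adjusted p was without CD_DSS 3 for Map1lc3b (0.120), Ulk1 (0.110), Atg4a (0.135), Ctsa (0.0849) and Hexa (0.102), and without HFD 2 for Optn (0.0707) and Npc2 (0.0611). Macrophage markers, whose cells are rich in lysosomes, were summed at 498, 340 and 312 FPKM in HFD 1 to 3 and 364, 627 and 657 in CD_DSS 1 to 3, with none of the 17 at 0 in all 6 libraries, and their part in these differences was not tested.

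Several single genes outside these groups had among the steadiest calls. Cd9, a tetraspanin found on macrophages and other cells, was at 15.3, 15.1 and 15.1 FPKM in CD_DSS and 6.28, 5.13 and 5.39 in HFD (-1.30, SE 0.10, adjusted p = 0.000189), with 10.7% of its exon bases shared with another gene. It was the 1 called of 16 macrophage markers (6.25%, against 7.70% of all tested genes). Without HFD 1 and CD_DSS 1, 14 of the 16 were called, all higher in CD_DSS. In that fit 1362 of all 10265 genes were called, and its libraries were chosen with the values in view. Sox9, a transcription factor of bile duct cells, was at 3.67, 3.16 and 4.21 in CD_DSS and 1.39, 1.47 and 1.37 in HFD (-0.95, SE 0.10, adjusted p = 0.00147). Tsc22d1, a transcriptional regulator induced by TGF-beta, was at 14.5, 16.9 and 25.2 in HFD and 3.57, 2.63 and 2.5 in CD_DSS (2.32, SE 0.20, adjusted p = 0.000268). For Tsc22d1, HFD lay above and CD_DSS below all CD libraries, which held 7.2 to 10.2 FPKM. Acnat2, which conjugates fatty acids to taurine, was at 41.4, 59.1 and 80.5 in CD_DSS and 13.1, 6.69 and 5.37 in HFD (-2.74, SE 0.40, adjusted p = 0.0045). F11, coagulation factor XI, was at 47.2 to 53.6 in HFD and 27 to 32.1 in CD_DSS (0.72, adjusted p = 0.00364). Hfe2, which encodes hemojuvelin, a co-receptor that raises hepcidin, was at 43.3 to 45.9 in HFD and 22.4 to 29.9 in CD_DSS (0.76, adjusted p = 0.00689).

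The markers show liver tissue in all 6 libraries, with none of the 11 hepatocyte markers at 0. Their summed FPKM was 40400 to 44600 in HFD and 56300 to 61300 in CD_DSS, without overlap. Albumin (Alb) made up most of it, at 22500 to 27100 in HFD and 35400 to 37500 in CD_DSS. Alb, Ahsg, Hnf4a and Apoh did not overlap, while Apoa1, Apob, Ttr, Trf, Serpina1a, Cps1 and Fgb did. Of the 11, 1 was called (9.09%, against 7.70% of all tested genes). Endothelial markers summed to 115 to 152 FPKM in HFD and 149 to 191 in CD_DSS, stellate and matrix markers to 133 to 171 and 154 to 186, and hemoglobin and other erythroid markers to 268 to 709 and 331 to 595. Of 10 exocrine pancreas markers, 6 (Cpa1, Prss2, Try4, Pnlip, Amy2a5 and Cel) were at 0 in all 6 libraries, and the sum was 13.4 to 16.1 FPKM in HFD and 2.86 to 6.4 in CD_DSS. Cela1, an elastase on that list, was at 14, 15.8 and 13 FPKM in HFD and 5.99, 2.6 and 3.6 in CD_DSS (1.64, adjusted p = 0.00693).

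The levels relative to CD are given as values only, because HFD against CD and CD_DSS against CD share the CD libraries, and no call is made from them. For Glul, the log2 difference from CD was 0.00 in HFD and -3.27 in CD_DSS, and for Bhmt it was -0.00 and -1.48. For Cyp4a12a it was 0.01 and -2.27, and for Ces2c -0.05 and -2.85. Socs3 stood at 0.56 and 2.31, Stat3 at 0.18 and 0.85, and Klf10 at -0.37 and 1.40. In these genes the CD_DSS mean was the one farther from CD. The HFD mean was the farther one for Ugt1a9 (-1.89 in HFD and -0.19 in CD_DSS), Rnd2 (-0.69 and -0.07), Maoa (-0.55 and 0.02), Cyp2d40 (1.00 and 0.12) and Gadd45g (3.45 and 0.80). The means lay on opposite sides of CD for Mup13 (4.17 and -2.80), Mup17 (1.57 and -1.98), Tsc22d1 (0.95 and -1.37), Zbtb16 (-0.64 and 1.57) and Fkbp5 (-0.93 and 0.99). Both means lay below CD for Thrsp (-1.28 and -2.87) and Cyp8b1 (-0.58 and -1.48), and for the uncalled Scd1 (-2.01 and -1.69) and Fasn (-1.04 and -1.03). For Scd1, CD_DSS 1 at 1307 FPKM lay within the CD libraries.

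HFD_DSS against CD sets the means of the other 6 libraries against each other and shares none with HFD against CD_DSS. The calls of both are not independent, since 1 fit to 12 libraries gives a gene the same standard error in each. With each pair of groups fitted alone, 61 genes in place of 202 were called in both and ordered by DSS, and without CD 2 the calls between HFD and CD_DSS numbered 512. In what follows, a gene ordered by DSS lies on the same side in both DSS groups, and a gene ordered by diet on the same side in both high-fat groups. In it 926 of 10265 genes (9.02%) were called, 378 higher and 548 lower in HFD_DSS. Both comparisons called 213 genes. Of these, 202 were ordered by DSS, which is 25.6% of the 790 and 21.8% of the 926, with 84 higher and 118 lower with DSS. Only 11 were ordered by diet (1.39% and 1.19%). Without HFD 1 and CD_DSS 1 the numbers were 688 and 13. Leaving out single compared libraries gave 50 (without CD_DSS 3) to 479 (without CD_DSS 1) ordered by DSS, and 3 to 17 ordered by diet.

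**Figure D5:**
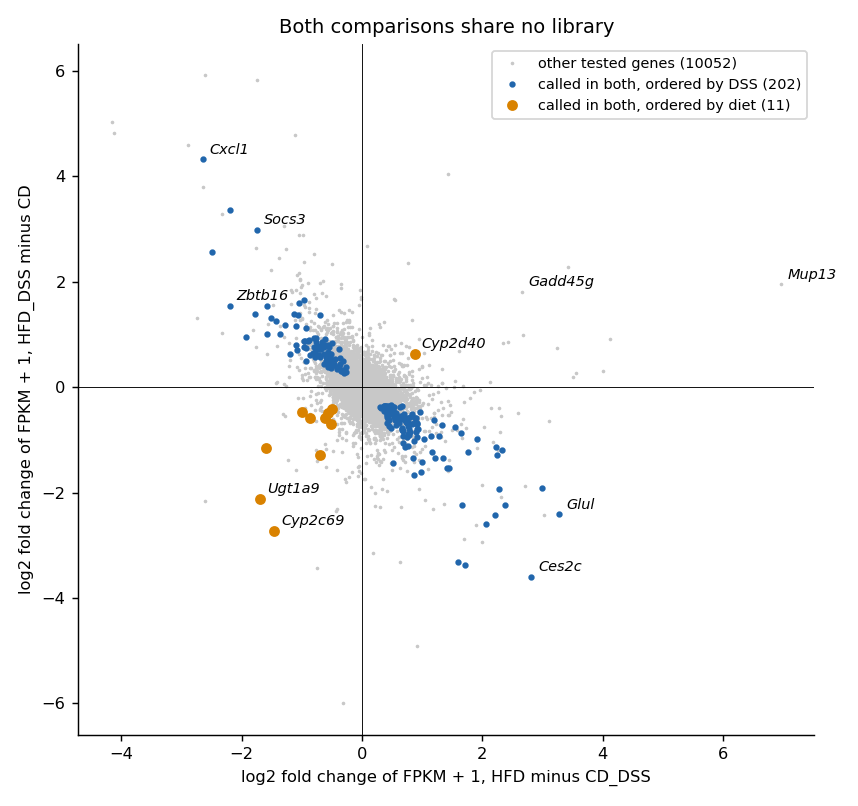
Log2 fold change of FPKM + 1 of each tested gene between HFD and CD_DSS (horizontal axis) and between HFD_DSS and CD (vertical axis), which share no library. The 202 blue genes, called in both and ordered by DSS, lie in the upper left and lower right, and the 11 orange genes, ordered by diet, in the lower left and upper right.

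Glul, Ces2c, G6pc, Thrsp, Tsc22d1, Sucnr1 and Cyp4a12a were called lower with DSS in both comparisons. In HFD_DSS against CD their log2 fold changes were -2.41 (Glul), -3.60 (Ces2c), -2.59 (G6pc), -3.33 (Thrsp), -1.20 (Tsc22d1), -2.23 (Sucnr1) and -1.94 (Cyp4a12a). Higher with DSS in both were Zbtb16 (1.55 in HFD_DSS against CD), Fkbp5 (0.94), Socs3 (2.98), Stat3 (0.79), Il6ra (0.57), Il6st (0.49), Klf10 (1.39), Cxcl1 (4.32), Sox9 (0.88) and Isyna1, the inositol phosphate synthase (2.55). The call of Isyna1 between HFD and CD_DSS stayed only without CD_DSS 1 (up to 0.163 otherwise). All 4 called members of the IL-6 pathway were thus ordered by DSS. Other genes were called between HFD and CD_DSS and not in HFD_DSS against CD, although the difference between the comparisons was not tested: Hsd3b5 (-0.55, adjusted p = 0.352 in HFD_DSS against CD), Bhmt (-0.46, adjusted p = 0.195), Cd9 (0.06, adjusted p = 0.726), Mup13 (1.95, adjusted p = 0.176) and Gadd45g (1.81, adjusted p = 0.0653). For Cd9 the HFD_DSS level of 7.82 to 8.93 FPKM overlapped that of CD (6.79 to 8.84), and the 15.1 to 15.3 of CD_DSS was above all other libraries. Of the 8 called autophagy genes and the 5 called lysosomal genes, 0 were called in both comparisons in either order. Map1lc3b was at 0.31 (adjusted p = 0.0762) and Ulk1 at 0.21 (adjusted p = 0.414) in HFD_DSS against CD.

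The 11 genes ordered by diet hold several enzymes of foreign compound metabolism. Ugt1a9, a glucuronosyltransferase, stood at 6.71, 5.56 and 6.73 FPKM in HFD and 33.5, 17.2 and 20.3 in CD_DSS (-1.70, SE 0.21, adjusted p = 0.00248), and at 4.78, 6.82 and 4.34 in HFD_DSS and 24.8 to 27.7 in CD (-2.12, adjusted p = 0.000675). Every high-fat library was below every other library. Ugt1a9 shares 59.9% of its exon bases with other genes of the Ugt1a locus, whose first exons are joined to common later exons, so its level is uncertain. Of the P450 enzymes of subfamily 2c, Cyp2c68 was at 65.7 to 70.6 in HFD and 92 to 123 in CD_DSS (-0.70, adjusted p = 0.0287), Cyp2c38 at 1.48 to 4.03 and 6.46 to 13.4 (-1.59, adjusted p = 0.0160), and Cyp2c69 at 1.17 to 2.2 and 3.44 to 11.1 (-1.46, adjusted p = 0.03825). In HFD_DSS against CD the log2 fold changes of Cyp2c68, Cyp2c38 and Cyp2c69 were -1.29, -1.16 and -2.73. These 3 are close paralogs, between which fragments could be divided. Cyp2d40 was the 1 gene higher on the high-fat diet, at 85.3 to 119 in HFD and 51.6 to 55.2 in CD_DSS (0.87, adjusted p = 0.0184).

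Further members ordered by diet were not enzymes of this kind. Cd207, langerin, a lectin of antigen-presenting cells, was at 0.82 to 1 FPKM in HFD and 2.69 to 2.96 in CD_DSS (-1.0, adjusted p = 0.00286). Vegfb, a growth factor of the VEGF family, was at 3.62 to 4.56 and 7.28 to 9.5 (-0.86, adjusted p = 0.0127). Rnd2, a small GTPase, was at 3.43 to 4.04 and 5.27 to 7.1 (-0.62, adjusted p = 0.0143). Maoa, monoamine oxidase A, was at 0.973 to 1.29 and 1.96 to 2.37 (-0.57, adjusted p = 0.0185), and Gm2a, the lysosomal activator of ganglioside breakdown, at 21 to 24.2 and 29.8 to 33.8 (-0.52, adjusted p = 0.0169). Sox18, a transcription factor of vessels, completes the 11, at -0.50 (adjusted p = 0.0168) and, in HFD_DSS against CD, -0.42 (adjusted p = 0.0266); it lies outside the rule for named genes and was named after its values were seen. Its call was lost without HFD 2 (0.0531) or CD_DSS 3 (0.0684). In the other 10, HFD and CD_DSS did not overlap, as was so for 784 of the 790 called genes. Of these 10, Ugt1a9 and Cd207 were called in each fit that left out 1 of the 6 libraries. Cyp2c38 (0.0684) and Vegfb (0.0509) lost the call without CD_DSS 3, Cyp2d40 without CD_DSS 2 or 3 (up to 0.064) and Maoa without HFD 3 or CD_DSS 3 (up to 0.0573). Cyp2c68 (up to 0.113) and Cyp2c69 (up to 0.138) lost it without any 1 HFD library or CD_DSS 3. Rnd2 lost it without HFD 2 or CD_DSS 2 (up to 0.0538) and Gm2a without HFD 3 or CD_DSS 2 (up to 0.054).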

How the data were processed

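The authors deposited 1 table of FPKM values with 1 column for each library. Per the submitters' processing notes they used mm10; no aligner or counter is named in the sources. The labels' protocols name a Qiagen RNeasy kit for the RNA and a SMARTer kit for the mRNA libraries. Of 54532 gene IDs, 54495 (99.9%) matched the mm10 gene annotation, which gave symbols, positions and exon lengths, and 25911 were above 0 in a library. The 4 unnamed empty columns were not used. Multiplied by exon length, 97.0 to 97.3% of the values under 500 fragments were within 0.02 of a whole number of fragments, and these fragments gave the depth.

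The test was limma 3.58.1 (R 4.3.3): log2(FPKM + 1) of the 12 libraries, a mean for each of 4 groups, moderated variances that follow the mean level, two-sided p-values adjusted by Benjamini-Hochberg over 10265 genes, threshold 0.05. Fold changes are on the log2(FPKM + 1) scale, which understates changes of low genes. On simulated data with 50 genes per size, the fit called 66% at 1.5-fold, 92% at 2-fold and 100% at 4-fold, with 8 false among 187 calls. The simulated spread was drawn independently for each gene and library, without shifts shared by many genes, such as those of HFD 1 and CD_DSS 1. These rates may therefore not hold for the measured data.

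The members, gene lists, tests and alternatives were chosen with earlier results of these data known. Named are up to 12 called genes of largest log2 fold change in each direction whose groups did not overlap, whose mean reached 1 FPKM and whose symbol is no clone name; up to 4 called members of each of 50 lists; up to 10 genes called in both comparisons in each order; and a panel of 30 genes whatever the test gave. Alternatives were other pseudocounts, filters, scalings, fits, weights, a replicate block and leaving out libraries (27 fits). Those without HFD 1 and CD_DSS 1, also without HFD_DSS 2, and voom on the recovered fragments were added after the data were seen. Replicate numbers did not pair the samples. TPM, median-of-ratios and quantile scaling moved the median difference by -0.0548, -0.0162 and -0.00383. The RefSeq starts used for the windows of Socs3, Tsc22d3, Fga, Gm2a, Cpt2 and Hamp differ from the annotated 5′ ends of these genes. The windows of Socs3 and Tsc22d3 lie inside the annotated genes, which span 117966079 to 117970047 and 140539528 to 140600659. A few genes that the rule would name are not reported here.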

Additional observations from a re-analysis of the deposited data

How the results depend on the processing

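The counts of genes called between HFD and CD_DSS (790), between HFD_DSS and CD (926), and in both ordered by DSS (202) or by diet (11) moved with the processing. In the same order they were 258, 404, 42 and 3 with no filter on low values (25911 genes), 2261, 3357, 1258 and 42 with libraries weighted, and 138, 216, 35 and 3 at an absolute log2 fold change of at least 1. They were 1362, 1716, 688 and 13 without HFD 1 and CD_DSS 1, and 1742, 2163, 1005 and 14 also without HFD_DSS 2. With the 2 groups fitted alone, 262, 61 and 7 were called for HFD against CD_DSS and for both orders, and at a mean of 5 FPKM the first count was 514. With 1 of the 12 libraries left out, they ranged from 156 to 1301, 275 to 1326, 50 to 479 and 3 to 17. Voom on recovered fragments called 825, 905, 202 and 8.

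With the replicate number as a replicate block, 554, 625, 140 and 6 genes were called; the correlations of same-numbered libraries ran from -0.39 to 0.27, so the numbers were not taken to pair the samples.

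Of the genes reported, the sign turned only in uncalled ones. With 1 library left out, Cd36 ran from -0.02 (without CD_DSS 2) to 0.28, Cyp4a10 from -0.43 to 0.11 (without HFD 1), Fasn from -0.27 to 0.31 (without CD_DSS 1), Pck1 from -0.24 (without CD_DSS 3) to 0.52 and Scd1 from -0.85 to 0.51 (without HFD 1). With weights, Cidec was -0.02, Fasn 0.34 and Scd1 0.64. Under both added removals, Cyp4a10 was 0.08, Fasn 0.58 and Scd1 1.31. The cause was not tested. Depth limits genes near 1 FPKM, and 3 libraries a group limit the power of each test.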
